A study of Drosophila melanogaster with 3 samples.

Results

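piRNA pathway genes of Drosophila melanogaster were examined for peaks of the transcription factor HLH54F in whole embryos. The 10 genes were chosen by function in the germline and not by their peaks: piwi, aub, AGO3, vas, spn-E, tej, rhi, del, cuff and armi. Earlier results of these data were known when they were chosen. All 10 were found in the annotation, among 13945 protein-coding genes on the 6 chromosome arms. The embryos were of both sexes, were 0 to 24 h old and carried a stable transgene for HLH54F fused at its C terminus to green fluorescent protein (GFP). The label field for the antibody names HLH54F, whereas the sample descriptions say that GFP was precipitated. Chromatin was sonicated to 200 to 800 bp, precipitated and sequenced (ChIP-seq) in 3 biological replicates that form 1 group, so there was no second condition to compare. No source used here names the promoter that drives the transgene.

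Piwi-interacting RNAs (piRNAs) are short RNAs that guide Argonaute proteins of the PIWI clade to transposon transcripts in the animal germline. In the fly, piRNA precursors come from genomic clusters, are cut in perinuclear granules called nuage and at mitochondria, and silence transposons in the cytoplasm and at the chromatin. HLH54F is a basic helix-loop-helix (bHLH) factor of the caudal visceral mesoderm, from which the longitudinal gut muscles arise. Peaks show where tagged protein was recovered with DNA and say nothing of expression. The label of these genes as germline genes could therefore not be checked in these data. Chromatin of whole embryos also does not separate germ cells from somatic cells, and which cells gave a peak was not tested.

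The authors deposited a relaxed pooled list of 23689 peaks called over all replicates, and its label names both peaks and background. They also deposited an optimal list of 4246 peaks, derived for reproducibility, which are the strongest of the pooled list by signal. A single optimal peak need not rank high in the list of every replicate. Each peak has a summit and a signal against the control, on a scale that no source used here explains. A summit was assigned to a gene when it lay in the gene or up to 2 kb upstream of it. The genome sequence within 100 bp of a summit is shown for 5 optimal summits of piwi, vas, spn-E and armi. The del summit is added because it missed the optimal list narrowly. All are on the plus strand of the arm in build dm6 (release 6 genome). Capitals mark every match to CANNTG (the E-box, a target of bHLH factors), to TATCGATA (the core of the DNA replication-related element), to GAGAG (the repeat bound by GAGA factor) and to GGTCACACT (the core promoter element bound by M1BP). Both strands were searched, CANNTG includes CAGCTG, and matches may overlap each other.
piwi summit, upstream of piwi, chr2L:10987443-10987643: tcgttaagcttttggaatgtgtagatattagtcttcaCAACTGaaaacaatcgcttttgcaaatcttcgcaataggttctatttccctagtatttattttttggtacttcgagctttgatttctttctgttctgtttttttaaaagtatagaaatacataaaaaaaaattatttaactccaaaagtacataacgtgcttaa
piwi window, summit at the start of TTLL4A, chr2L:10989279-10989479: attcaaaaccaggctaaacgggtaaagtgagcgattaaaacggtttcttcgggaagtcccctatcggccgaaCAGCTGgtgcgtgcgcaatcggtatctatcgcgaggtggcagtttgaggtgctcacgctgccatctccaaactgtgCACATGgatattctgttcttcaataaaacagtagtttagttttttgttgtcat
vas window, summit at the start of vig, chr2L:15068034-15068234: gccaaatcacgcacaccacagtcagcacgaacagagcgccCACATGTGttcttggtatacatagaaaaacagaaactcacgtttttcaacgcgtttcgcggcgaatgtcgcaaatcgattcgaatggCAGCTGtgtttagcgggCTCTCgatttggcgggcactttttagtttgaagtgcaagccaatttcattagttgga
spn-E window, summit at the start of Pbp45, chr3R:15839385-15839585: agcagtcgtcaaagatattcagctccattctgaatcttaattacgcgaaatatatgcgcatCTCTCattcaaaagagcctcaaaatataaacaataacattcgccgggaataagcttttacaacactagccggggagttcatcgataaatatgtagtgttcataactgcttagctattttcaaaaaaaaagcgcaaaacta
armi window, summit in eIF5B, chr3L:3460665-3460865: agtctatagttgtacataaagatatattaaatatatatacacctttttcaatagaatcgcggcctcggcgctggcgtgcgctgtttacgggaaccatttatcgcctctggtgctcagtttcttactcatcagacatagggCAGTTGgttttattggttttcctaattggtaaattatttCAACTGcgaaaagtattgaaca
del summit, upstream of del, chr2L:21149159-21149359: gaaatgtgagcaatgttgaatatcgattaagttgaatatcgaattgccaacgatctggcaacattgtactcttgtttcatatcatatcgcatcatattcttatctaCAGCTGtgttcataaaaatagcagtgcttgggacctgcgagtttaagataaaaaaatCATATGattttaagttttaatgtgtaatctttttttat

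An optimal summit lay in the window of 6 of the 10 genes: piwi, vas, spn-E, tej, cuff and armi. Over all protein-coding genes the share was 30.6%. A pooled summit lay in the window of 9 genes, against 67.3% of all genes, and aub was the gene without one. Since the pooled list includes background, a pooled summit that is not optimal may be background. In all, the 10 windows held 25 pooled summits, of which 7 were optimal. In the windows of piwi, vas, del and armi some neighbouring pooled peaks overlapped, so their summits need not mark separate regions. The windows of the 10 genes were longer than usual, with a median of 7012 bp against 4166 bp. When all genes were divided into 5 equal classes by window length, the share with an optimal summit was 13.5% in the shortest class and 48.0% in the longest. In the class from 4839 to 8455 bp, which held piwi, aub, rhi, del and armi, it was 39.2%, and 2 of these 5 genes had one. In the longest class, which held AGO3, vas and spn-E, 2 of 3 had one. The other 2 genes with an optimal summit were in classes of shorter windows. These were cuff (3024 to 3717 bp, share 24.5%) and tej (3718 to 4838 bp, share 28.2%), each the 1 listed gene of its class.

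**Figure D1:**
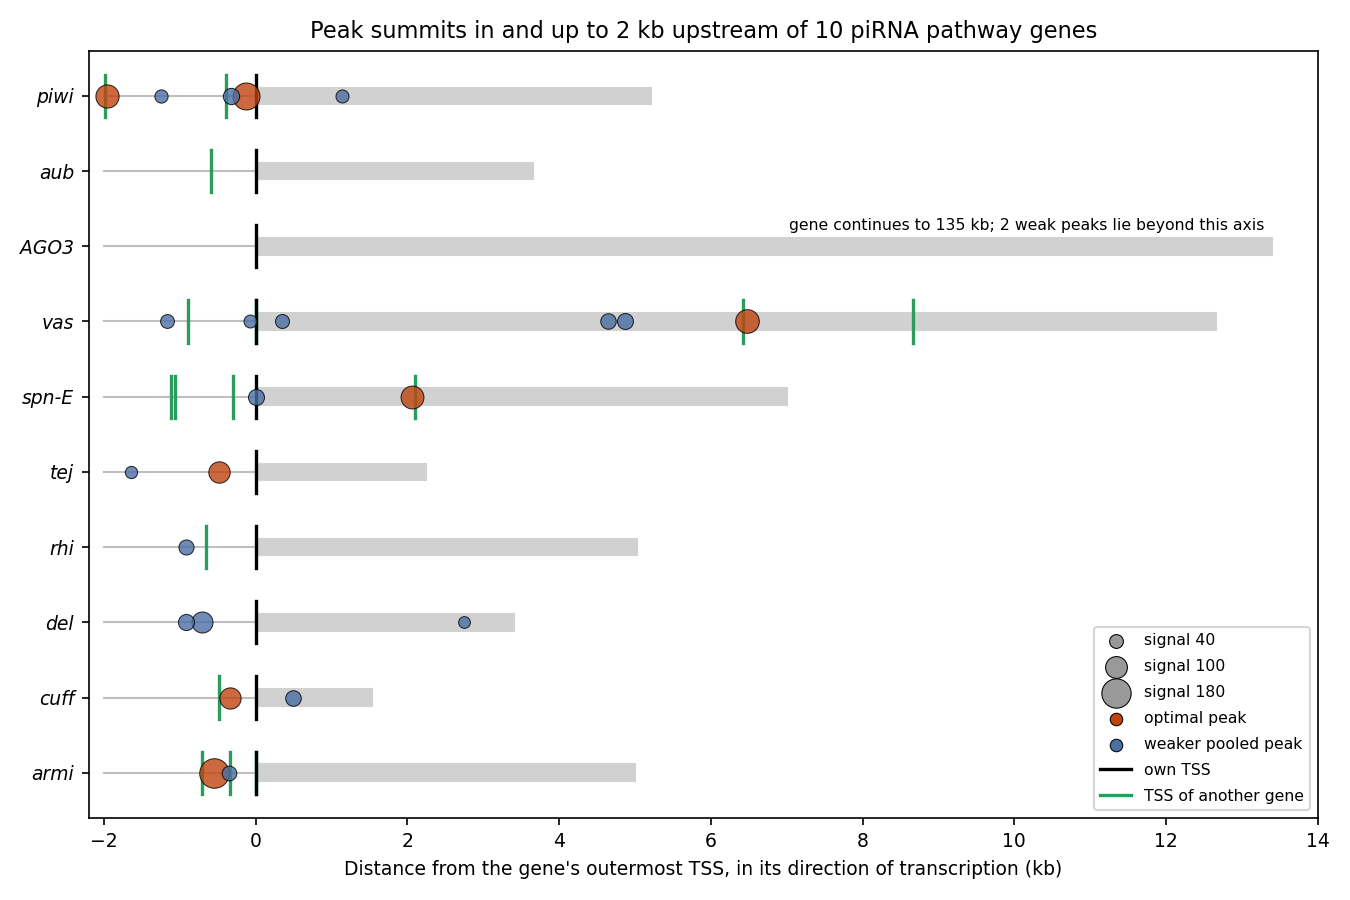
Summits (circles, area by signal) are placed by distance from each gene's outermost transcription start site (TSS, x axis, kb), with the gene body in grey; orange marks optimal and blue weaker pooled peaks, and green lines are starts of other genes. Of the 7 optimal summits, 5 lie upstream of the gene and those of vas and spn-E lie inside it, beside the start of another gene.

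All 7 optimal summits were promoter summits, within 500 bp of a TSS, as were 60.9% of all optimal peaks. The start was often a neighbour's. For 4 of the 6 genes (vas, spn-E, cuff and armi) the strongest summit was nearest to the start of another gene. That was so for 41.6% of all genes with an optimal summit in the window. An optimal summit lay within 500 bp of the gene's own TSS at piwi, cuff and tej, so 3 of 10 genes, against 22.6% of all protein-coding genes. These 3 sat 123, 341 and 487 bp upstream of their own TSS.

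**Figure D2:**
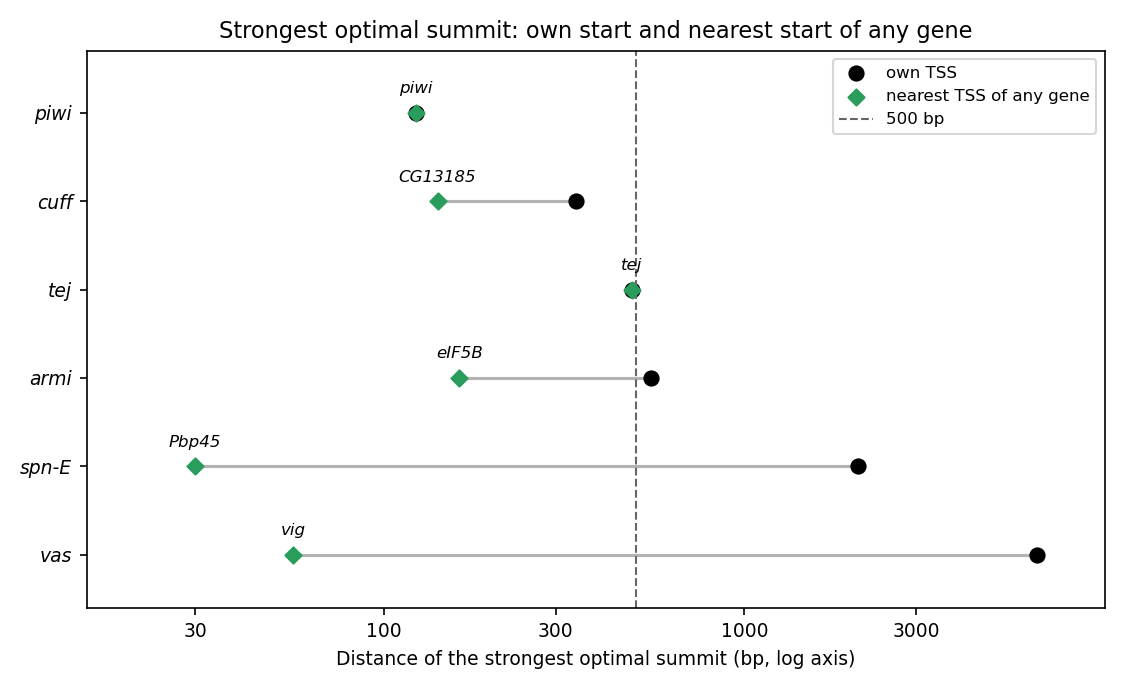
For the 6 genes with an optimal summit, black circles give the distance of the strongest one from the gene's own TSS and green diamonds its distance from the nearest TSS of any gene, which is named (x axis, bp, log scale). The symbols coincide at piwi and tej; at vas they stand at 6478 and 56 bp.

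Among the genes of the PIWI proteins themselves, piwi alone had optimal summits. Piwi is the nuclear member of the clade, which silences transposons at the chromatin. Its strongest peak (2L, 10987333 to 10987752) had a pooled signal of 152.6 and lay between piwi and CG12253, a gene transcribed the other way from 386 bp upstream. The signals in the lists of replicates 1, 2 and 3 were 57.1, 45.8 and 45.6, each on the scale of its own list. The ranks there were 2248, 2813 and 2035 (2365 ± 402, SD, n = 3). All 3 ranks were above position 4246, the size of the optimal list. Summits of the replicates' peaks lay 8 to 49 bp from the pooled summit.

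The second optimal summit of the piwi window (10989169 to 10989588, signal 112.8) was 1959 bp upstream of piwi, close to the limit of 2 kb, and 22 bp from the start of TTLL4A, a gene of the tubulin tyrosine ligase-like family. It ranked 4835, 4382 and 2304 (3840 ± 1350, SD, n = 3), with signals of 33.3, 34.1 and 41.5 in the lists of replicates 1, 2 and 3. Replicate 3 was the only one to place it within the top 4246. A weaker pooled summit with a signal of 55.5 lay 54 bp upstream of CG12253 and 332 bp upstream of piwi. It ranked 3705, 5193 and 10961. Inside piwi itself the one summit was intronic, had a signal of 35.4 and was found in replicate 2 only.

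Aubergine and AGO3 are the cytoplasmic partners that slice transposon and cluster transcripts in turn, the ping-pong cycle. The aub gene lies near piwi on 2L (10997819 to 11001476), and its window held no pooled summit. Replicate 2 had 3 peaks there, the best at rank 13684, and replicates 1 and 3 had none. The nearest optimal summit was 2691 bp from the aub TSS, outside the window, and 14 bp from the start of the ribosomal protein gene RpL9 (signal 127). AGO3 spans 135048 bp near the centromeric end of 3L (23554593 to 23689640). Its 2 pooled summits were intronic with signals of 31.8 and 29.1. Each was found in a single replicate, the stronger in replicate 3 at rank 5516 and the weaker in replicate 2 at rank 13924. No optimal summit lay within 675699 bp of an AGO3 start, and the one at that distance was at Chro. How well reads can be placed in this region was not tested.

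The windows of vas, spn-E and tej each held 1 optimal summit, which was nearest to the gene's own start at tej only. Vasa is a DEAD-box RNA helicase that organises nuage and marks germ cells. The window of its gene (2L, 15061656 to 15074311) held 6 pooled summits, the most of the 10 windows, with 4 in the gene and 2 upstream of it. The optimal one (15067924 to 15068343, signal 117) was 6478 bp downstream of the vas TSS and 56 bp upstream of a start of vig. The vig gene lies within vas on the opposite strand and encodes a protein found with the RNA interference machinery. The replicate signals of the optimal peak were 40.6, 36.6 and 35.5. Replicates ranked this peak 3689, 3947 and 2820 (3485 ± 590, SD, n = 3), all within the top 4246. The vas TSS, which vas shares with the cohesion gene solo, had summits of 41.1 at 352 bp downstream and 35.1 at 80 bp upstream. Neither was found in replicate 3, and their ranks in replicates 1 and 2 lay between 10416 and 20618.

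Spindle-E is a helicase with a Tudor domain that acts in the ping-pong cycle. Its optimal summit (3R, 15839275 to 15839694, signal 109) lay inside the gene, 2066 bp from the spn-E TSS and 30 bp downstream of the start of Pbp45. That gene, on the other strand, encodes a subunit of the complex that activates small nuclear RNA genes. The replicate signals were 46.2, 32.8 and 27.9. The ranks were 3087, 4652 and 3921 (3887 ± 783, SD, n = 3), with replicate 2 beyond position 4246. At the spn-E TSS itself a weaker summit had a signal of 53.6. The complex I gene ND-23 starts 302 bp upstream of that TSS, on the other strand. The ranks of the weaker summit, 23571, 7552 and 8216, were widely spread.

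Tejas is a Tudor domain protein that recruits Vasa and Spindle-E to nuage. Its gene on 2R (14300103 to 14302353) had no other start within the window. The optimal summit (14302630 to 14303049, signal 95.4) lay 487 bp upstream of the TSS, near the limit of 500 bp that defines a promoter summit here. The replicate signals were 27.9, 37.1 and 24.8. It ranked 6148, 3855 and 4569 (4857 ± 1173, SD, n = 3), and only replicate 2 placed it within the top 4246. The summit in replicate 3 was 122 bp from the pooled one, the largest such shift among the 7 optimal peaks, whose median shift over replicates was 11 bp.

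The complex of Rhino, Deadlock and Cutoff licenses transcription of heterochromatic piRNA clusters from both strands. Of its 3 genes, cuff had an optimal summit. It lay on 2R (11885516 to 11885935, signal 94.6), 341 bp upstream of cuff and 141 bp upstream of CG13185, which starts 482 bp upstream of cuff and runs the other way. The replicate signals were 31.9, 33.2 and 38.3. The ranks were 5124, 4562 and 2548 (4078 ± 1354, SD, n = 3), and only replicate 3 placed it within the top 4246. A second summit near cuff, 491 bp downstream of the TSS, had a signal of 50.7.

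The strongest del summit (2L, 21149049 to 21149468) had a signal of 92.6 and stood at position 4263 of the pooled list. The last optimal peak had a signal of 92.7 at position 4246. The del summit was 713 bp upstream of the del TSS, with no start of another gene nearer. It ranked 4810, 3869 and 6157 (4945 ± 1150, SD, n = 3), and only replicate 2 placed it within the top 4246. These ranks overlapped those of the optimal summits of tej and cuff. The rhi window held a single summit (signal 47.7), ranked 22196, 14956 and 13283 by the replicates. It lay 915 bp upstream of rhi and 264 bp upstream of Oxp, a relative of rhi in the HP1 family. The optimal summit nearest to rhi was 32121 bp away, at eIF3c.

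Armitage is an RNA helicase that hands precursor transcripts over for phased piRNA production. The armi window held the strongest peak of the set (3L, 3460555 to 3460974, signal 183). Its signals in replicates 1, 2 and 3 were 70.3, 57.1 and 53.4. Its ranks were 1675, 1949 and 1645 (1756 ± 168, SD, n = 3), the narrowest spread of the 7 optimal peaks. The summit lay in eIF5B, a translation initiation factor gene on the opposite strand, 162 bp upstream of one of its starts and 552 bp upstream of armi. A weaker summit nearer to armi, 353 bp upstream, was 13 bp from another start of eIF5B. The gene CG46463 starts 2 bp from armi on the same strand. The weaker summit had a signal of 44.8, and replicate 1 had no peak there.

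**Figure D3:**
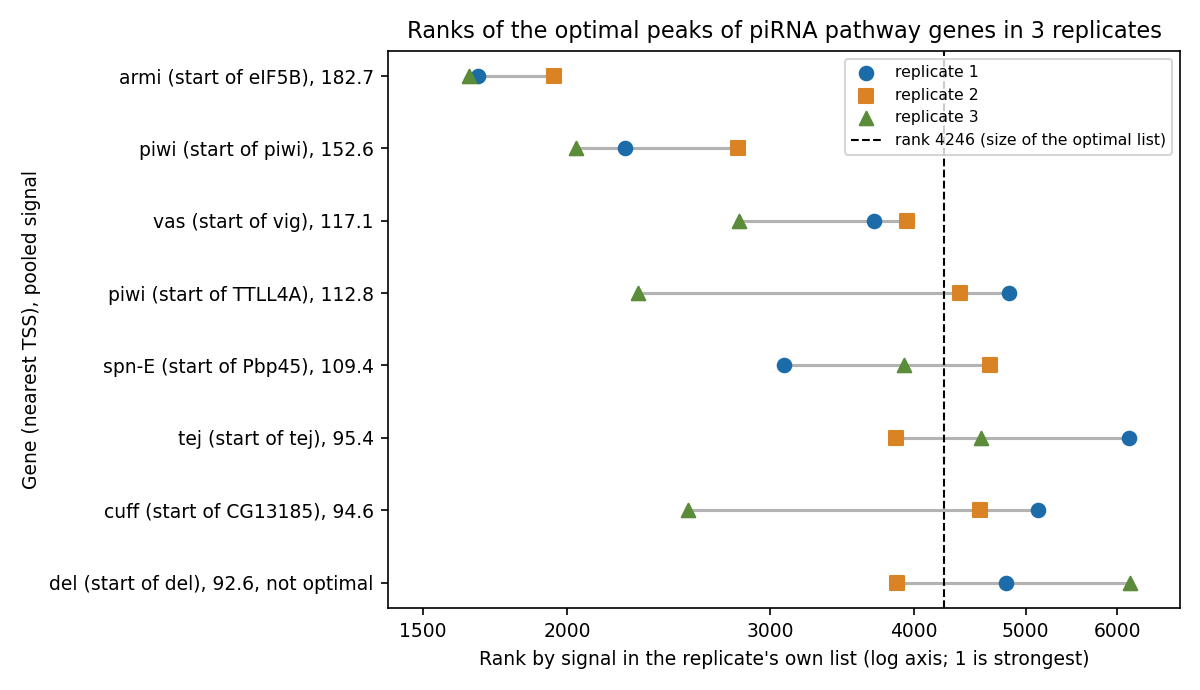
Each row is a peak, labelled with its gene, the gene of the nearest TSS and its pooled signal; symbols give its rank by signal in the list of each replicate (x axis, log scale, 1 is strongest), and the dashed line is rank 4246. All 3 symbols lie left of the line for the armi peak, the strongest piwi peak and the vas peak.

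Across the set, 3 genes (piwi, vas and armi) had an optimal summit inside a top peak of every replicate, a top peak being one of the 4246 strongest of that replicate's list. The share over all protein-coding genes was 22.9%. All 7 optimal summits were found in every replicate when the whole relaxed lists of 30000, 30000 and 24914 peaks were used. Of the 18 weaker summits, 7 were found in all replicates, 6 in a pair and 5 in a single one. Signals of the weaker summits ran from 29.0 to 92.6 with a median of 42.9. Their deposited −log10 q-values ran from 0.0408 to 1.19, except for the del summit of signal 92.6 (3.45). The 7 optimal summits each had 3.93. The weaker summits comprised 8 promoter, 5 intronic, 3 intergenic and 2 coding exon summits. The optimal list was itself derived for reproducibility. The counts in whole replicate lists and of the weaker summits by class were not set beside shares over all peaks. They are therefore not shown to be particular to these genes.

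The optimal peaks of these genes were modest in strength. The strongest peak of the 6 genes had a median signal of 113, against 181 over all genes with an optimal summit. Only the armi peak exceeded 154, the median of the optimal list, and piwi came just below it. By comparison, the strongest peak in the list had a signal of 3344. The strongest summit at the HLH54F gene itself had a signal of 63.0 and was not optimal. Of the genes outside the set, CG10584, Polr3E and CG10418 had ranks most like those of the strongest piwi peak. The measure was the distance over 3 log10 ranks, 0.0303 for the promoter peak that CG10584 and Polr3E share and 0.0313 for that of CG10418.

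The sequences shown above and those of the summits of tej and cuff were searched for the same motifs and for CAGCTG. An E-box CANNTG lay within 100 bp of 5 of the 7 optimal summits, against 62.1% of all 4246. CAGCTG was at 2 of them, in the windows of piwi (the TTLL4A start) and vas (the vig start), against 11.2%. The del summit, which is not optimal and not among the 7, held it too. TATCGATA was at 1 of the 7, the tej summit, against 5.79%. GAGAG was at 2, beside vig and Pbp45, against 21.5%. GGTCACACT was at none, against 2.80%. The GC content of the 201 bp windows ranged from 28.4% to 47.3% over the 7, with a median of 38.3% against 36.8% for all optimal summits.

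Promoters of the 10 genes were searched from 250 bp before to 50 bp after the outermost TSS. CANNTG was in 6, against 77.3% of all protein-coding genes. CAGCTG and GAGAG were in none, against 17.7% and 29.8%. TATCGATA was in those of tej and spn-E, against 9.37%, and GGTCACACT in those of piwi and armi, against 6.05%. These matches describe the letters in the windows and are not shown to be sites of any factor.

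Other genes of the pathway were taken from 3 lists by role, and 18 of these 41 genes (43.9%) had an optimal summit in the window. The share over all protein-coding genes was 30.6%. The median window was 4700 bp for these 41 genes and 4166 bp for all genes. In 11 of the 18 the strongest summit was nearest to the start of another gene. That was so for 41.6% of all genes with an optimal summit in the window. Among 12 genes of cluster transcription and export 4 had an optimal summit. They were led by Boot (signal 432), whose product links the export factor Nxf3 to the clusters, Hel25E (128), the RNA helicase of mRNA export, and Nxf3 (111). These 3 summits lay at the starts of Uhg4, Lam and Meics. Another optimal summit lay 15 bp from a TSS of Hel25E.

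Of 10 genes of nuclear silencing 5 had an optimal summit, and all 5 had one in a top peak of every replicate. Among all 13945 protein-coding genes 4273 (30.6%) had an optimal summit, and 3193 (22.9%) had one in a top peak of every replicate. The gene of heterochromatin protein HP1a had the strongest summit of this list (1064), beside the start of CG8360 and 1906 bp away from its own. Another optimal summit lay 178 bp from the TSS of the HP1a gene. The peak of wde, a cofactor of the histone methyltransferase Eggless, lay in its own intron (738). That of ctp, a dynein light chain gene, lay 143 bp from its own TSS (201). Of 19 genes of biogenesis and ping-pong 9 had an optimal summit. The strongest were at papi (526), a Tudor protein of mitochondria, whose peak lay 309 bp from its own TSS, shu (262), an Hsp90 cochaperone, and Hen1 (162), which methylates the ends of piRNAs. The shu and Hen1 summits lay at the starts of CG5554 and bsd. At papi another optimal summit lay 110 bp from a TSS of that gene.

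In the miRNA and siRNA pathway 8 of 13 genes (61.5%) had an optimal summit, and 7 had one within 500 bp of their own TSS. The shares over all protein-coding genes were 30.6% and 22.6%. Windows of this list were longer, with a median of 8547 bp against 4166 bp for all genes. In the class of longest windows the share with an optimal summit was 48.0%. The strongest summits of this list were in the windows of pasha (1012), r2d2 (511) and AGO1 (276). All 3 were nearest to the start of another gene. The pasha summit was 24 bp from Mnat9, the r2d2 summit 68 bp from Herp and 157 bp from r2d2, and the AGO1 summit 75 bp from mRpL53 and 95 bp from AGO1. Another optimal summit lay 44 bp from a TSS of r2d2. The vig peak is also the one counted for vas. Of 15 germline genes outside the piRNA pathway 9 (60%) had an optimal summit, led by swa (329), nanos (237) and bgcn (219). Their median window was 5657 bp, and in the class from 4839 to 8455 bp the share was 39.2%. The swa summit lay in Marf, 525 bp from a Marf start and 766 bp from that of swa. The nanos summit was 55 bp from CG11779 and 371 bp from nanos, and the bgcn summit was nearest to its own start. The median signal of the strongest pooled peak was 95.4 for the 9 piRNA genes with one, 163 for the miRNA and siRNA genes, 155 for the other germline genes and 82.6 for all protein-coding genes. No difference between these lists was tested.

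**Figure D4:**
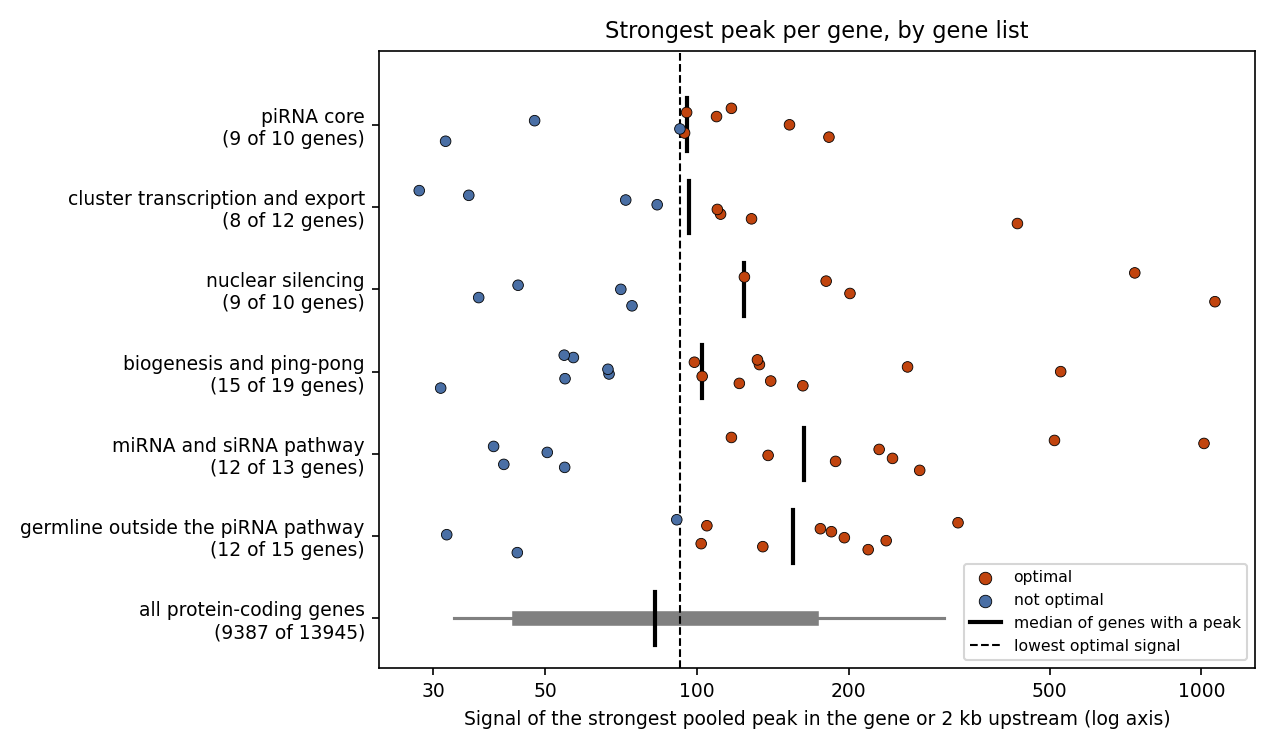
Points are genes placed by the signal of their strongest pooled peak (x axis, log scale), orange where it is optimal; black bars are medians over genes with a peak, the dashed line is the lowest optimal signal (92.7), and the grey bar spans the quantiles 0.25 to 0.75 (thick) and 0.1 to 0.9 (thin) of all protein-coding genes. The piRNA core genes lie between 31.8 and 183.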

How the data were processed

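Per the labels and the small text records the authors deposited, they called each replicate's relaxed peak list on its own dm6 alignment against 1 control file, called a pooled list on all 3 alignments, and derived the optimal list with the irreproducible discovery rate procedure. No source used here names the aligner, the peak caller, versions or settings. The deposited signal per peak and its deposited −log10 q-value come from the authors' caller. Signal was used within a list only, to describe and rank peaks, and the q-value entered 1 alternative ranking. Read totals were not used here, so depth is unknown. All lists share a control and the pooled list holds every replicate, so the lists are not independent. The dm3 lists were not analysed here.

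Genes, TSS and features came from Ensembl release 115 (BDGP6.54), without transposable elements, and bases from the RefSeq release 6 assembly, whose coordinates are those of dm6. No peak ran past the end of its arm. The summit is the start plus the deposited offset, which is the midpoint within 1 bp for 96.0% of pooled peaks. A summit's rank in a replicate is that of the strongest peak containing it. A summit within 500 bp of any TSS was a promoter summit, and others took the first class that applied among 5′ UTR, coding exon, 3′ UTR, exon of a non-coding gene, intron and, last, intergenic. Python 3.11.15, pandas 2.3.3 and numpy 2.4.6 were used, and window assignment was tested on planted positions. With 1 group no test between conditions was possible. Named were all 10 genes, genes of their nearest starts, up to 3 genes of highest signal with an optimal summit per other list, HLH54F, and the 3 genes nearest to piwi in replicate ranks. The genes and lists were chosen with earlier results of these data known. Symbols of 4 listed genes were matched by their current spelling.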

Additional observations from a re-analysis of the deposited data

How the results depend on the processing

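The count of 6 genes with an optimal summit was also 6 with an upstream limit of 1 kb or with any overlap of the peak interval, and 5 with a limit of 500 bp, where armi was lost. It was 2 in the gene body alone (vas and spn-E), 2 when each summit went to its nearest protein-coding start alone (piwi and tej), and 1 among optimal peaks above the list's median signal (armi). The other 41 pathway genes, with 18 as reported, gave 9 in the gene body alone and 8 above that median. The count of 3 genes with an optimal summit at their own TSS was 1 within 250 bp (piwi), 4 within 1000 bp, and 0 above the median. The count of 3 genes found in the top peaks of every replicate lay between 3 and 4 when each replicate was left out, spn-E being gained without replicate 2, and was 6 with whole replicate lists. These alternative gene counts were not set beside shares over all protein-coding genes. The changes are therefore not shown to be particular to the listed genes. The alternatives for pooled summits, replicate overlap, ranking by q-value and the windows for CANNTG and CAGCTG at the 7 summits moved these counts by at most 1.5 times. GGTCACACT, at none of the 7 within 100 bp, was at 1 within 150 bp. No paired analysis was possible because there is 1 group.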

Other observations

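The flamenco locus on X (21631891 to 21790731), a piRNA cluster annotated as a non-coding gene, held 5 pooled summits in the gene or up to 2 kb upstream, of which 1 was optimal with a signal of 130. It was looked up after the values of the genes were seen. Its window was of a length found in the longest class of protein-coding genes. In that class 93.0% of genes had a pooled and 48.0% an optimal summit. The start nearest to the optimal summit of this locus is not given here. At AGO1, the Argonaute gene of the miRNA pathway, the strongest optimal peak (signal 276) ranked 772 and 581 in replicates 1 and 2, and no peak of replicate 3 contained its summit.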
